A study of Mus musculus with 116 samples.

Results

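The comparison described here set C10 single cells, whose titles join a number to the line name, against the libraries titled as 1 cell in a separately named series of the same mouse line. C10 libraries were taken where their gene counts summed to at least 100000, and the 1-cell libraries were those numbered 2, 5, 6, 9, 10, 13 and 14. That gave 52 of the 116 samples of the study, 45 of 48 C10 single cells and 7 of 8 1-cell libraries. The 3 C10 libraries left out held 56, 971 and 83188 counts, and the shallowest kept held 147254 and 264137. The 1-cell library numbered 1 was also left out. It held 430798 gene counts, detected 538 genes and had 95.1% of its reads unaligned.

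The study applied nanoSPLITS, a nanodroplet method that divides the lysate of a cell so that RNA and protein can be measured from the same cell, to the cell lines C10 and SVEC. Both groups compared here carry the same labels apart from their titles: C10 cells in standard culture, no treatment, and full-length cDNA made with SMART-Seq v4 Plus. The labels give no day, plate or sequencing run, so anything of that kind cannot be told apart from the series. Pools of 3 and of 10 C10 cells (6 libraries each) bear titles of the same form as the 1-cell libraries, and 48 SVEC single cells bear titles of the same form as the C10 single cells. The labels do not say that the libraries came from separate cultures, so p-values measure the spread between these libraries only.

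A single cell holds few copies of most messenger RNAs, and each step of lysis, reverse transcription and amplification can lose some of them. Abundant transcripts, such as those for ferritin, ribosomal proteins and the mitochondrial respiratory chain, are seen in nearly every cell, while scarce ones appear in some cells and are missed in others. Preparations of the same line can therefore differ in which genes are seen as well as in their levels.

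The labels call C10 an alveolar type II epithelial line. Sftpc and Sftpa1, which encode surfactant proteins, Slc34a2, the phosphate transporter of type II cells, the club cell gene Scgb1a1 and the type I cell gene Aqp5 were at 0 in all 52 libraries. Of 23 epithelial markers, 11 were at 0 in every C10 single cell and 13 in every 1-cell library. The markers' summed level was 3.52, 78.7 and 366 CPM (the gene's counts per 1000000 gene counts of the library) at the lowest, median and highest C10 single cell, and 4.11, 32.0 and 671 CPM in the 1-cell libraries. Pdpn, a membrane glycoprotein of type I cells, was counted in 44 of 45 C10 single cells and 7 of 7 1-cell libraries, at medians of 58.3 and 25.0 CPM, and Cdh1, E-cadherin, in 24 and 6, at 0.209 and 1.32 CPM. Mesenchymal markers summed to a median of 5019 CPM in C10 single cells and 5067 CPM in 1-cell libraries. Most of that sum lay in Vim (medians of 2006 and 1967 CPM), S100a4 (1669 and 1753 CPM) and Fn1 (547 and 368 CPM), while Thy1 was at 0 in all 52 libraries and Pdgfra, Pdgfrb, Snai1, Twist1, Zeb1 and Zeb2 had a median of 0 in C10 single cells. The surfactant genes that define type II cells thus go against the label in both groups, and the line is called C10 here. Summed endothelial markers reached at most 96.2 CPM in C10 single cells and 21.3 CPM in 1-cell libraries. Blood and immune markers had a summed median of 0 in both.

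Depth differed between the series. C10 single cells held between 147254 and 5911755 gene counts and 1-cell libraries between 7838544 and 15385625. A single count was worth 0.519 CPM in the median C10 single cell and 0.0836 CPM in the median 1-cell library, so a low level could be seen in the second group and not in the first. The measures of detection below therefore use libraries thinned to 100000 counts each. Among the 1-cell libraries, number 14 had 18.8% of its counts on mitochondrial mRNAs and number 10 detected the most genes; results that rest on either are given with and without it.

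The libraries numbered 1 stood apart from the others of the input series. For Selenbp1, TrnP, Ankrd31, Ceacam10, A230098N10Rik, Usp44 and Parp14, genes described below, the 3-cell and 10-cell pools numbered 1 both lay within the range of the C10 single cells and below every other pool of their kind. The 1-cell library numbered 1, which was left out, also lay within the C10 range for these genes, and at 2625 CPM for Fth1. It detected 538 genes, and the C10 range begins at 0 for the genes other than Fth1, so this shows little likeness. It lay outside the C10 range elsewhere, as for mt-Rnr2 (329558 CPM, highest C10 value 124339), Bax (2344, highest 330) and Gpx1 (0, lowest 122). These genes were singled out after their values were seen, and the labels give nothing else that the number marks. Without the pools numbered 1, the calls against the 3-cell pools went from 63 to 20 higher and from 890 to 760 lower, and those against the 10-cell pools from 13 to 7 higher and from 1462 to 1284 lower.

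At matched depth the C10 single cells detected 2853, 4821 and 6713 genes (lowest, median, highest) and the 1-cell libraries 2521, 3747 and 7078. The means were 4748 ± 763 (SD, n = 45) and 4118 ± 1580 (SD, n = 7). Their difference of 630 genes had an adjusted p of 0.0922 by a two-sided exact permutation test, over 3 measures of detection and likeness. The 7 libraries straddled the C10 range, with number 10 above every C10 single cell. Without number 10 the difference was 1123 genes (exact permutation, adjusted p = 0.00214), so that 1 library decided the call. At full depth the order turned round, 6397 genes in C10 single cells and 8092 in 1-cell libraries.

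Genes well expressed in the 10-cell pools were missed less often in the C10 single cells. Of 3185 genes with at least 50 CPM on average and a count in every 10-cell pool, the C10 single cells missed 20.0% ± 8.39 (SD, n = 45) and the 1-cell libraries 31.2% ± 15.9 (SD, n = 7). The difference was -11.2 percentage points (exact permutation, adjusted p = 0.0114). It lay between -14.5 and -7.72 points when each 1-cell library was left out in turn, and the call was lost without number 5 (adjusted p = 0.0701) or number 14 (0.0798). At full depth the difference was -5.49 points and did not pass (exact permutation, adjusted p = 0.102). The 3-cell pools missed 9.27% and the 10-cell pools 1.69% at the same depth. The gap depended on the level of the gene. Genes at 30 to 100 CPM in the 10-cell pools were seen at a median rate of 56.9% in C10 single cells and 42.5% in 1-cell libraries, genes at 100 to 300 CPM at 87.4% and 78.3%, and genes at 1000 CPM or more at 100% in both.

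**Figure D1:**
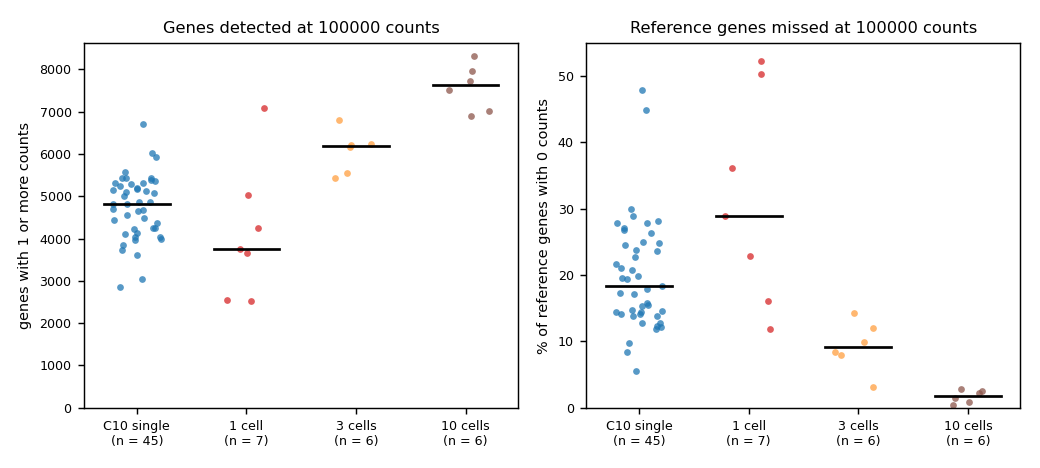
Genes detected and the share of reference genes missed in each library after thinning to 100000 counts, by group, 1 point per library, with a bar at the group median. The 1-cell libraries spread from 2521 to 7078 genes, and the 45 C10 single cells lie between 2853 and 6713.

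The C10 single cells were the more alike of the groups. The mean Pearson r of log2(CPM + 1) at matched depth was 0.577 over 990 pairs of C10 single cells, 0.503 over 315 pairs across the series and 0.473 over 21 pairs of 1-cell libraries. The mean over all within-series pairs exceeded the between-series mean by 0.0722 (one-sided exact permutation of libraries, adjusted p = 0.000576). With 990 of its pairs from C10 single cells and 21 from 1-cell libraries, that mean reflects mostly the C10 single cells. The 1-cell libraries were less like each other than like C10 single cells. C10 single cells also had the higher mean r with the 10-cell pools, 0.622 against 0.560. Even among 606 genes at 300 CPM or more in the 10-cell pools, the median coefficient of variation was 0.512 in C10 single cells and 0.572 in 1-cell libraries, against 0.344 in the 3-cell and 0.264 in the 10-cell pools.

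Ribosomal protein mRNAs took a larger share of the counts in C10 single cells, 6.60% ± 1.68 (SD, n = 45) against 4.78% ± 0.795 (SD, n = 7). The difference of 1.82 points had an adjusted p of 0.0473 by exact permutation over 7 measures of composition. The call was lost without 1-cell library 13 (difference still positive, adjusted p = 0.0544) or 14 (0.134), and for the difference of medians (0.0872). Mitochondrial mRNAs took 2.77, 4.69 and 16.8% in C10 single cells (lowest, median, highest) and 4.43, 5.47 and 18.8% in 1-cell libraries, with means of 4.91% ± 2.06 (SD, n = 45) and 7.36% ± 5.11 (SD, n = 7). Their difference of -2.45 points (exact permutation, adjusted p = 0.0473) became -0.544 points (adjusted p = 0.676) without library 14, and the call was also lost without library 13 (-2.55 points, 0.0604) and for the difference of medians (0.336). Reads aligned outside gene models made up 4.24% ± 0.671 (SD, n = 45) and 5.27% ± 1.94 (SD, n = 7), a difference of -1.03 points (exact permutation, adjusted p = 0.0473) that was -0.360 points (0.255) without library 10. That call was also lost without library 13 (0.0544) or 14 (0.134), with library 1 added (0.324) and for the difference of medians (0.0872). The shares of mitochondrial ribosomal RNA, noncoding RNA, the 100 most abundant genes and unaligned reads did not pass the test, with adjusted p from 0.125 to 0.799 by exact permutation.

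**Figure D2:**
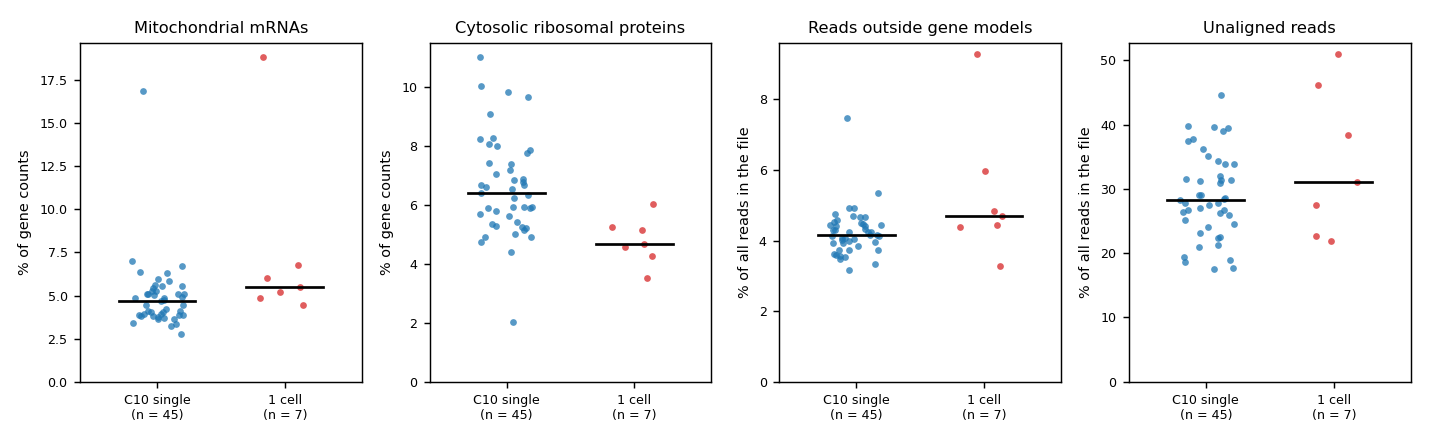
Mitochondrial and ribosomal protein mRNAs as percent of gene counts, and reads outside gene models and unaligned reads as percent of all reads tallied, 1 point per library with a bar at the group median. The 1-cell library numbered 14 stands at 18.8% mitochondrial mRNA, and the highest C10 single cell stands at 16.8%.

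Gene by gene, 1044 of 8406 genes tested (12.4%) were called, 102 higher (1.21%) and 942 lower (11.2%) in C10 single cells. Called here means an adjusted p under 0.05, by edgeR's quasi-likelihood test unless another tool is named. A further tool, limma on log2(CPM + 1), called 800 (9.52%), 334 higher (3.97%) and 466 lower (5.54%), and 469 genes (5.58%), 38 higher (0.452%) and 431 lower (5.13%), passed both in the same direction. The split between higher and lower depended on the scaling. Under edgeR's default scaling (TMM, trimmed mean of M-values) the median log2 difference of all genes was -0.46, and under plain library totals it was 0.06, with 686 calls (8.16%), 160 higher (1.9%) and 526 lower (6.26%). On libraries thinned to 100000 counts it was 0.15, with 238 calls of 4321 genes (5.51%), 156 higher (3.61%) and 82 lower (1.9%). Differences of single genes below are the TMM values and are to be read against that median. Genes under 0.05 in the same direction under all of TMM, totals, DESeq2's poscounts scaling, thinned counts and limma numbered 68 of 4321 (1.57%), 26 higher (0.602%) and 42 lower (0.972%).

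These counts are descriptions, with no test: the 1-cell libraries are deeper, and a gene at or near 0 in them entered the test only through the C10 group. Of the 42 genes lower in C10 single cells, 34 had counts in all 7 1-cell libraries and 16 had counts in all 45 C10 single cells, so a part of them were seen throughout both groups. Of the 26 higher genes, 21 had a median of 0 CPM in the 1-cell libraries, 25 had counts in at most 4 of them, and 1 (Crip1) had counts in all 45 C10 single cells.

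**Figure D3:**
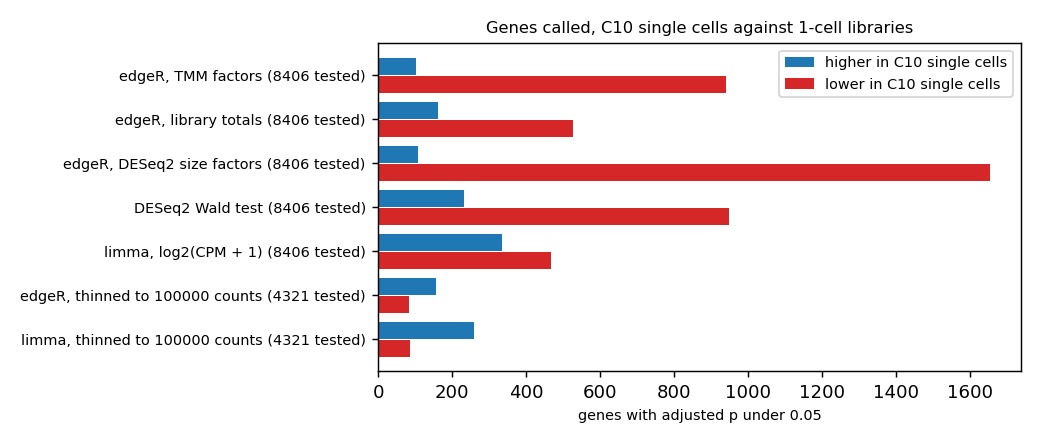
Genes called higher and lower in C10 single cells under each scaling and tool, as numbers of genes with an adjusted p under 0.05. The lower calls outnumber the higher ones under TMM (942 and 102) and under library totals (526 and 160), and the order turns round on thinned counts (82 and 156).

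Ferritin showed the clearest shift. Fth1, the ferritin heavy chain that stores and oxidises iron, stood at 418, 1730 and 3623 CPM in C10 single cells (lowest, median, highest) and at 7398, 17243 and 33368 CPM in 1-cell libraries. The groups did not overlap, and the log2 difference was -3.84 ± 0.16 (SE; edgeR, adjusted p = 4.23e-27), -3.19 on thinned counts. The other 5 3-cell pools lay between 11299 and 22029 CPM and the other 5 10-cell pools between 12301 and 20728 CPM, while the pools numbered 1, at 6645 and 4236 CPM, lay between the groups, above every C10 single cell and below every 1-cell library. The SVEC median was 1169 CPM. Fth1 has near-identical processed copies in the genome, and how reads shared with them were counted is not given in the sources used here. Ftl1, the ferritin light chain, was at 2727, 5461 and 13362 CPM against 5539, 11231 and 17280 CPM, lower by a log2 difference of -1.57 ± 0.16 (SE, adjusted p = 8.75e-12), and 26 of 45 C10 single cells lay below the lowest 1-cell library.

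Gpx1, glutathione peroxidase, had a median of 621 CPM in C10 single cells and values between 1010 and 2865 CPM in 1-cell libraries; 43 of 45 C10 single cells lay below that range (log2 difference -2.09 ± 0.20, adjusted p = 1.08e-12). Prdx2, a peroxiredoxin that reduces hydrogen peroxide, differed by -1.61 ± 0.23 (adjusted p = 1.61e-07). Both were named after their values were seen. Of 15 targets of the antioxidant regulator NRF2 tested, 0 were higher and 3 lower (Fth1, Ftl1 and Hmox1), beside 11.2% lower over all genes, and the other 12 were not called. The median was -0.40, beside -0.46 over all genes. Hmox1, the heme oxygenase that frees iron from heme, had counts in 36 of 45 C10 single cells, with a median of 29.1 CPM, and stood between 194 and 489 CPM in 6 of the 7 1-cell libraries and at 0 in number 5. Its log2 difference of -2.90 ± 0.81 (adjusted p = 0.00915) did not pass without library 6 (0.0508) or 13 (0.0847), with library totals or in limma.

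Beside 11.2% lower over all genes, mitochondrially encoded mRNAs were lower in 11 of 13 cases and higher in 0, with a median log2 difference of -1.21. That count rested on library 14: without it 2 of 13 were lower, with a median of -0.47 beside -0.41 over all genes, and without library 6 the count was 6. With library totals 3 of 13 were lower, beside 6.26% over all genes, with a median of -0.48. ATP6, a subunit of the proton channel of ATP synthase, kept its call in all these fits. It stood at 1782, 3990 and 10869 CPM in C10 single cells and at 5642, 7051 and 20781 CPM in 1-cell libraries, with 43 of 45 C10 single cells below that range. Its difference of -1.84 ± 0.20 (edgeR, adjusted p = 5.78e-11) became -1.19 without library 14. The ATP6 gene overlaps ATP8 and adjoins COX3, so reads there can be shared. COX1, the catalytic core of cytochrome oxidase, differed by -1.44 ± 0.23 (adjusted p = 1.94e-06) and by -0.74 without library 14, while ND1 (complex I) and CYTB (complex III) did not pass without it (-0.60, adjusted p = 0.0663, and -0.47, 0.291). Against the 3-cell and 10-cell pools, fitted in 1 model that shares the C10 single cells, 1 (ATP6, adjusted p = 0.0129) and 0 of the 13 mRNAs were lower, and ATP6 did not pass against the 3-cell pools without those numbered 1 (0.0710).

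TrnP, the mitochondrial transfer RNA for proline, separated the groups. It had counts in 22 of 45 C10 single cells, none above 5.28 CPM, and between 13.0 and 50.3 CPM in every 1-cell library (log2 difference -5.60 ± 0.72, adjusted p = 1.03e-08). It passed the filter only through the 1-cell group, so that p-value is a description. The other pools lay between 16.9 and 41.7 CPM (3 cells) and between 24.6 and 48.0 CPM (10 cells), and the pools numbered 1 within the C10 range, at 1.89 and 1.80 CPM. SVEC single cells had a median of 0.

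Some transcripts were seen in every 1-cell library and in almost no C10 single cell. Counts in all 7 1-cell libraries and in at most 4 C10 single cells were found for 46 genes; the reverse, counts in all 45 C10 single cells and in at most 3 1-cell libraries, for 0. Depth enters this contrast, since at full depth 2787 genes had counts in all 1-cell libraries and 869 in all C10 single cells. Selenbp1, which encodes a selenium-binding protein that oxidises methanethiol, stood above that limit. Its 1-cell values ran from 7.27 to 70.0 CPM, it had counts in 8 of 45 C10 single cells and at most 2.76 CPM there, and its difference was -7.67 ± 0.71 (edgeR, adjusted p = 5.88e-13). Selenbp1 passed the filter only through the 1-cell group, so that p-value is a description. Selenbp2, a close copy that could share its reads, had counts in 3 C10 single cells and in 0 1-cell libraries. The pools numbered 1 lay within the C10 range for Selenbp1 too, at 0 (3 cells) and 0.962 CPM (10 cells), while the other pools held it at 8.11 to 68.0 and at 26.7 to 117 CPM.

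Ankrd31, a gene of meiotic recombination that overlaps the locus LOC115488230, had values from 1.18 to 35.8 CPM in 1-cell libraries and at most 0.571 CPM in C10 single cells (difference -8.01 ± 0.54, adjusted p = 6.86e-18). The uncharacterised genes Gm52444 and A230098N10Rik, which overlaps Il6, also did not overlap between the groups (adjusted p of 1.50e-20 and 5.70e-15). Their lowest 1-cell values, 0.455 and 1.43 CPM, lay near the worth of a single C10 count, and neither passed the filter at matched depth. Usp44, a deubiquitinase of the spindle checkpoint that overlaps Metap2, stood between 2.17 and 43.6 CPM in 1-cell libraries and had counts in 5 C10 single cells, a difference of -6.34 ± 0.82 (adjusted p = 1.62e-08) that remained -3.39 on thinned counts. Ceacam10, a member of the carcinoembryonic antigen family, differed by -5.95 ± 0.68 (adjusted p = 4.26e-10). Neither Ankrd31 nor Ceacam10 was among the 42 genes lower under all scalings and tools.

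Several of the largest fitted differences belonged to single 1-cell libraries. Rsph9, a radial spoke gene of motile cilia that overlaps Mrps18a, stood at 30.5 CPM in library 10 and at a median of 0.128 CPM over all 7. Its difference of -6.64 became -3.45 without that library. Ldb3, a Z-disc gene, and Ttll9, a tubulin ligase gene that overlaps Dusp15, peaked in the same library, at 54.0 and 43.4 CPM, and moved from -6.63 to -4.03 and from -5.69 to -3.46. Gm5627 stood at 141 and 98.2 CPM in libraries 2 and 10 and at no more than 1.43 CPM elsewhere, M1ap, a meiosis gene that overlaps Gm19287, above 40 CPM in 3 libraries (206, 126 and 47.7 CPM), and Zfp985 at 361 and 159 CPM in libraries 13 and 6.

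**Figure D4:**
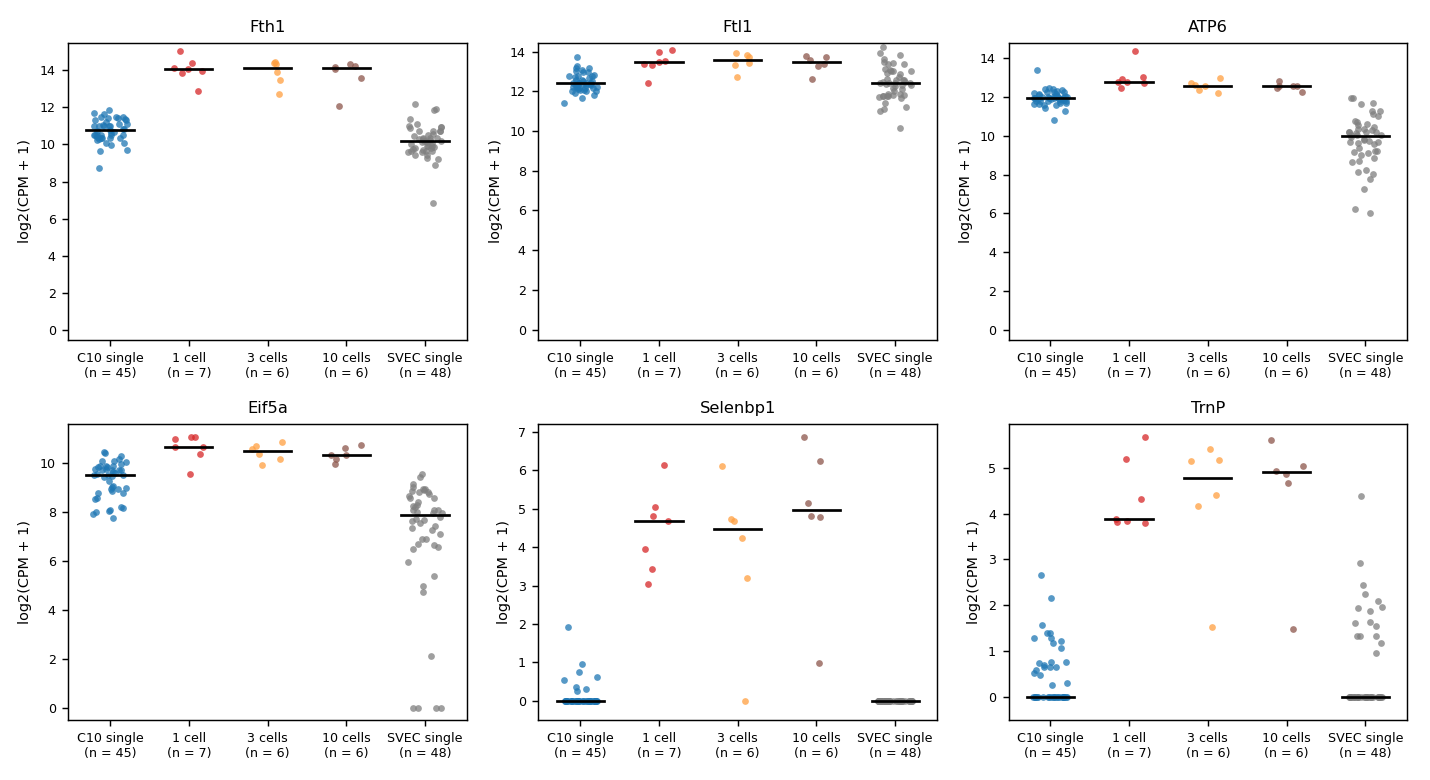
Levels of Fth1, Ftl1, ATP6, Eif5a, Selenbp1 and TrnP as log2(CPM + 1), 1 point per library and a bar at the group median, for C10 single cells, 1-cell libraries, 3-cell and 10-cell pools and SVEC single cells. Fth1, Selenbp1 and TrnP do not overlap between the C10 single cells and the 1-cell libraries.

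Among nuclear genes of oxidative phosphorylation 18 of 76 were lower and 0 higher with TMM scaling, with a median of -0.49 beside -0.46 over all genes. Over all genes 11.2% were lower and 1.21% higher with TMM. With library totals 4 list members were lower and 8 higher, beside 6.26% and 1.9% over all genes. On thinned counts 1 was lower and 7 higher, beside 1.9% and 3.61%. In limma 3 were lower and 13 higher, beside 5.54% and 3.97%. Without library 6 there were 7 lower and 3 higher. Cox8a, a small subunit of cytochrome oxidase, was lower in these fits: it stood at 245, 452 and 852 CPM in C10 single cells and at 457, 1043 and 1576 CPM in 1-cell libraries (difference -1.76 ± 0.18, adjusted p = 2.22e-11). Ndufb9 (complex I), Cox4i1 (complex IV) and Atp5g2 (the rotor ring of ATP synthase) were lower with TMM, by -1.53, -1.29 and -1.63, and did not pass on thinned counts (adjusted p of 0.104, 0.0972 and 0.348).

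Cytosolic ribosomal proteins moved in both directions. Of 81 tested, 5 were higher and 12 lower with TMM, with a median of -0.06, 18 higher and 2 lower with library totals, with a median of 0.52, and 21 higher and 1 lower of 80 on thinned counts, with a median of 0.63. The median of all genes was -0.46, 0.06 and 0.15 in these fits. Over all genes 1.21%, 1.9% and 3.61% were higher and 11.2%, 6.26% and 1.9% lower. Leaving out 1-cell library 6 gave 8 higher and 4 lower, and leaving out number 10 gave 1 and 12. Rps4x, of the small subunit, stood at 365, 1126 and 1940 CPM in C10 single cells and at 119, 365 and 731 CPM in 1-cell libraries, and 38 of 45 C10 single cells lay above that range (difference 0.86 ± 0.27, adjusted p = 0.0274; 1.48 on thinned counts). Rps4x, Rpl21 and Rpl23a, the last pair higher by 0.81 and 0.62, lost the call without library 10 (adjusted p of 0.0562, 0.0780 and 0.0983), Rpl23a also without 14 (adjusted p of 0.0687). Rpl10 (1.08, adjusted p = 0.0489) had values from 6.37 to 1444 CPM in the 1-cell libraries and lost the call without any of numbers 5, 6, 10 and 14. The gene Rpl6, of the large subunit, went the other way, from a 1-cell median of 827 CPM to 358 CPM (difference -1.71 ± 0.21, adjusted p = 4.16e-09; -0.99 on thinned counts), and Rps2 differed by -1.22 ± 0.16 (adjusted p = 4.85e-08; 0.0760 on thinned counts). Most ribosomal protein genes have near-identical pseudogenes, and introns of some (Rpl10 among them) hold small nucleolar RNA genes, so these counts are uncertain to that extent.

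Of 36 translation factors, 5 were lower and 0 higher with TMM, a share near the 11.2% lower over all genes. With library totals 2 were lower and 2 higher, beside 6.26% and 1.9% over all genes. In limma 1 was lower and 6 higher, beside 5.54% and 3.97%. Eif5a, the hypusine-bearing elongation factor, was at 724 CPM in the median C10 single cell and 1622 CPM in the median 1-cell library (difference -1.82 ± 0.24, adjusted p = 4.03e-08), and its call held under each scaling. Eif4a1, the helicase that opens messenger RNA leaders, ranged from 8.50 to 937 CPM in the 1-cell libraries and differed by -2.23 ± 0.41 (adjusted p = 2.95e-05), but not in limma (0.210). Eef1a1, which delivers transfer RNAs to the ribosome, was called with TMM (-0.98) and neither with library totals (-0.35, adjusted p = 0.268) nor without library 6 (-0.54, 0.112).

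Of 32 actin cytoskeleton genes, 8 were lower and 0 higher with TMM, beside 11.2% lower and 1.21% higher over all genes. With library totals 1 was lower and 1 higher, beside 6.26% and 1.9% over all genes. The TMM count was 2 lower without library 13, 3 without 6, and 4 without 2 or 14. Arpc1b, of the Arp2/3 complex that branches actin, was at 106 CPM in the median C10 single cell and at 0 to 1148 CPM in 1-cell libraries (difference -2.82 ± 0.55, adjusted p = 0.000103; limma 0.403). Capzb, which caps filament ends, was at 0.127 CPM in library 5 and between 420 and 1952 CPM in the other 6 (difference -1.96, adjusted p = 0.00175; limma 0.781). Tpm4, a tropomyosin, differed by -1.42 (adjusted p = 0.000763), and did not pass without library 13 (0.0637).

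Of 10 p53 targets, 3 were lower and 0 higher, with TMM and with totals alike, beside 11.2% and 6.26% lower over all genes. The TMM median was -1.74, beside -0.46 over all genes. On thinned counts the lower ones were 3 of 8, beside 1.9% over all genes. Without library 10 they were 2 of 11, with a median of -1.15 beside -0.33 over all genes, and without libraries 10 and 14 together 1 of 10, with a median of -0.25 beside -0.14. Bax, the pore-forming death effector, was at 1.76, 200 and 330 CPM in C10 single cells and between 212 and 791 CPM in 1-cell libraries, with 29 of 45 C10 single cells below that range (difference -1.81 ± 0.30, adjusted p = 4.05e-06). Phlda3, a repressor of Akt signalling, differed by -3.52 ± 0.81 (adjusted p = 0.00113) with library 5 at 0, and did not pass without libraries 10 and 14 (0.230). Ccng1, cyclin G1, stood at 4075 CPM in library 10 and between 266 and 1464 CPM in the others, and without library 10 its difference of -2.34 became -1.64 (adjusted p = 0.0675).

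Smaller numbers came from the remaining lists, each to be read beside the 11.2% lower over all genes. Glycolysis had 3 of 14 lower, among them Gapdh (-1.22, adjusted p = 1.93e-05), which did not pass with library totals (0.0841). Heat shock proteins had 3 of 15 lower, among them the mitochondrial cochaperonin Hspe1 (-1.28, adjusted p = 0.000708; totals 0.177), and library totals left 0 lower. Lysosomal genes had 4 of 24 lower, among them Psap, the saposin precursor (-3.28, adjusted p = 0.0187), and Mcoln1, a calcium channel (-3.67, adjusted p = 0.0123), and library totals left 0. Psap did not pass without any of libraries 6, 9 and 14 (adjusted p up to 0.209), nor Mcoln1 without 2 or 5 (up to 0.0830). In the S100, annexin and galectin list 1 of 21 was higher and 2 lower. S100a6, a calcium-binding protein, stood at 351, 1348 and 2703 CPM in C10 single cells and between 1507 and 3398 CPM in 1-cell libraries (difference -1.44 ± 0.21, adjusted p = 3.51e-07). Fkbp1a, a prolyl isomerase that binds rapamycin (-2.14 ± 0.26), and Atp6v0e, a proton pump subunit (-2.08 ± 0.30), were chosen after their values were seen and were lower with adjusted p of 3.28e-09 and 1.61e-07.

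With edgeR and TMM scaling no member passed in the lists for S phase (28 tested), G2/M phase (25), proteasome subunits (31), the ATF4 response (21), interferon-stimulated genes (10), hypoxia response (12) and nuclear long noncoding RNAs (14), where the background was 12.4%. Some calls were made by limma, library totals and thinned counts, each of them higher. limma called 12 of 31 proteasome subunits, 4 of 12 hypoxia genes, 3 of 21 ATF4 genes, 2 of 14 nuclear noncoding RNAs and 1 of 25 G2/M genes. Library totals called 3 proteasome subunits and 1 G2/M gene, and thinned counts 3 of 31 proteasome subunits, 1 of 9 hypoxia genes and 1 of 18 ATF4 genes. Over all genes 3.97% were higher in limma, 1.9% with library totals and 3.61% on thinned counts. With 1 library left out, edgeR made calls in both directions. Over all genes the fits named next called 8.95 to 11.5% in either direction. Without library 2 it called 2 of 13 hypoxia genes higher and 1 of 11 interferon-stimulated genes lower. Proteasome subunits had 2 of 31 higher without library 6 and 1 of 31 lower without library 5. Among nuclear long noncoding RNAs 1 of 14 was lower without library 14. Psma3, of the core ring, was at 154, 528 and 1087 CPM in C10 single cells and at 1.02, 175 and 382 CPM in 1-cell libraries, with 34 C10 single cells above that range (edgeR adjusted p = 0.107; thinned 0.0135). Psmc2, of the base, was at 819 CPM in the median C10 single cell and at 0 to 572 CPM (adjusted p = 0.183; thinned 0.0144).

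Crip1, a LIM-domain protein gene, was the 1 gene both among the 26 higher under all of those scalings and tools and counted in all 52 libraries. It stood at 95.0, 967 and 5668 CPM in C10 single cells and at 28.6, 163 and 437 CPM in 1-cell libraries, with 41 of 45 C10 single cells above that range. The difference was 2.16 ± 0.51 (edgeR, adjusted p = 0.00135). The pools lay between the groups, at medians of 263 and 440 CPM, with adjusted p of 0.00345 and 0.0433 against the C10 single cells, the second of which was 0.0553 without the pools numbered 1. The SVEC median was 0.

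Cholesterol synthesis and uptake was, with TMM scaling, the 1 list with calls in the higher direction only. Its members were higher in 3 of 14 cases, beside 1.21% over all genes, and lower in 0. The median was 1.82, beside -0.46 over all genes. The counts were the same with library totals, beside 1.9% higher over all genes, and 4 of 11 on thinned counts, beside 3.61%. They were 1 of 14 without 1-cell library 2, and 1 of 15 without number 9 or number 13. Nsdhl, a sterol dehydrogenase of the pathway, had counts in 35 of 45 C10 single cells, with a median of 112 CPM and a highest value of 672 CPM, and did not exceed 0.383 CPM in any 1-cell library (edgeR, adjusted p = 0.000300). Its call held without each library. Srebf2, the transcription factor of the pathway, had counts in 33 C10 single cells and in 1 1-cell library (3.01 CPM in number 10), with an adjusted p of 0.0220 that rose to at most 0.0517 with 1 library left out. Nsdhl was counted in 3 1-cell libraries, so both genes passed the filter only through the C10 group and their p-values are descriptions. Both are among the 3 list members called with TMM. That count, and the list median that includes them, are therefore descriptions as well. The 10-cell pools held Nsdhl at a median of 50.2 CPM and Srebf2 at 17.7 CPM, and 0 of 20 list members tested against either pool passed.

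Of the same 26 genes, 6 were at 0 in all 7 1-cell libraries. They passed the filter only through the C10 group, so their values are descriptions. Egr1, an immediate early transcription factor, had counts in 32 of 45 C10 single cells with a highest value of 352 CPM. Its mean was 184 times a floor of 3 counts in each 1-cell library. That floor covers counting error only, so the ratio is no lower bound on a difference in expression. The mean of Rab27b, a GTPase of vesicle secretion, was 559 times that floor, and that of Slc6a8, the creatine transporter, 148 times. These 2 were the only genes counted in at least 34 C10 single cells and in 0 1-cell libraries at full depth. The means of Acly, Olfml2b and Gas1 were 287, 255 and 178 times that floor. Acly supplies cytosolic acetyl-CoA for lipid synthesis, Olfml2b is an olfactomedin-domain gene and Gas1 is a hedgehog co-receptor. Apart from Egr1, these genes were chosen after their values were seen. The pools did hold most of them: the 10-cell medians were 90.4 CPM for Rab27b, 57.4 CPM for Slc6a8, 43.5 CPM for Egr1, 68.1 CPM for Olfml2b and 26.4 CPM for Acly, but 2.25 CPM for Gas1, and none of the 6 passed against either pool. Slc6a8 overlaps Gm32261 and Rab27b overlaps Gm41770.

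Trim28, a corepressor of transposable elements, and Fyttd1, an mRNA export adaptor, followed the same pattern, also as chosen after their values were seen. Trim28 had counts in 32 C10 single cells and at most 0.588 CPM in a 1-cell library, Fyttd1 in 35 and at most 1.20 CPM. Each was counted in 1 1-cell library, so both passed the filter only through the C10 group. In the opposite direction, Dusp1, a phosphatase induced with the immediate early genes, was at a median of 11.7 CPM in C10 single cells and between 58.7 and 700.4 CPM in 1-cell libraries (-3.27, adjusted p = 0.0126). It did not pass with library totals (0.0891) or without library 6, 9 or 13 (up to 0.117). Of 14 immediate early genes tested, Egr1 was thus the 1 higher and Dusp1 the 1 lower, beside 1.21% and 11.2% over all genes.

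The other genes named as higher were less secure. Mboat4, the ghrelin acyltransferase gene that overlaps Dctn6, was at 84.3, 259 and 516 CPM against 36.1, 84.5 and 126 CPM, with 43 of 45 C10 single cells above the 1-cell range (1.05 ± 0.32, adjusted p = 0.0209; 0.0570 without library 5). Frg1, an RNA-binding protein gene that overlaps Asah1, Sema3c, a secreted guidance cue, and Ptp4a2, a phosphatase, were higher by 3.64, 3.43 and 2.33 (adjusted p of 0.0303, 0.0464 and 0.0343). These 3 lost the call in 5, 5 and 4 of 7 fits with a library left out. Sema3c was at 0 in 5 of the 1-cell libraries and at 48.5 and 76.8 CPM in numbers 6 and 9. It passed the filter only through the C10 group, so its p-value is a description.

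**Figure D5:**
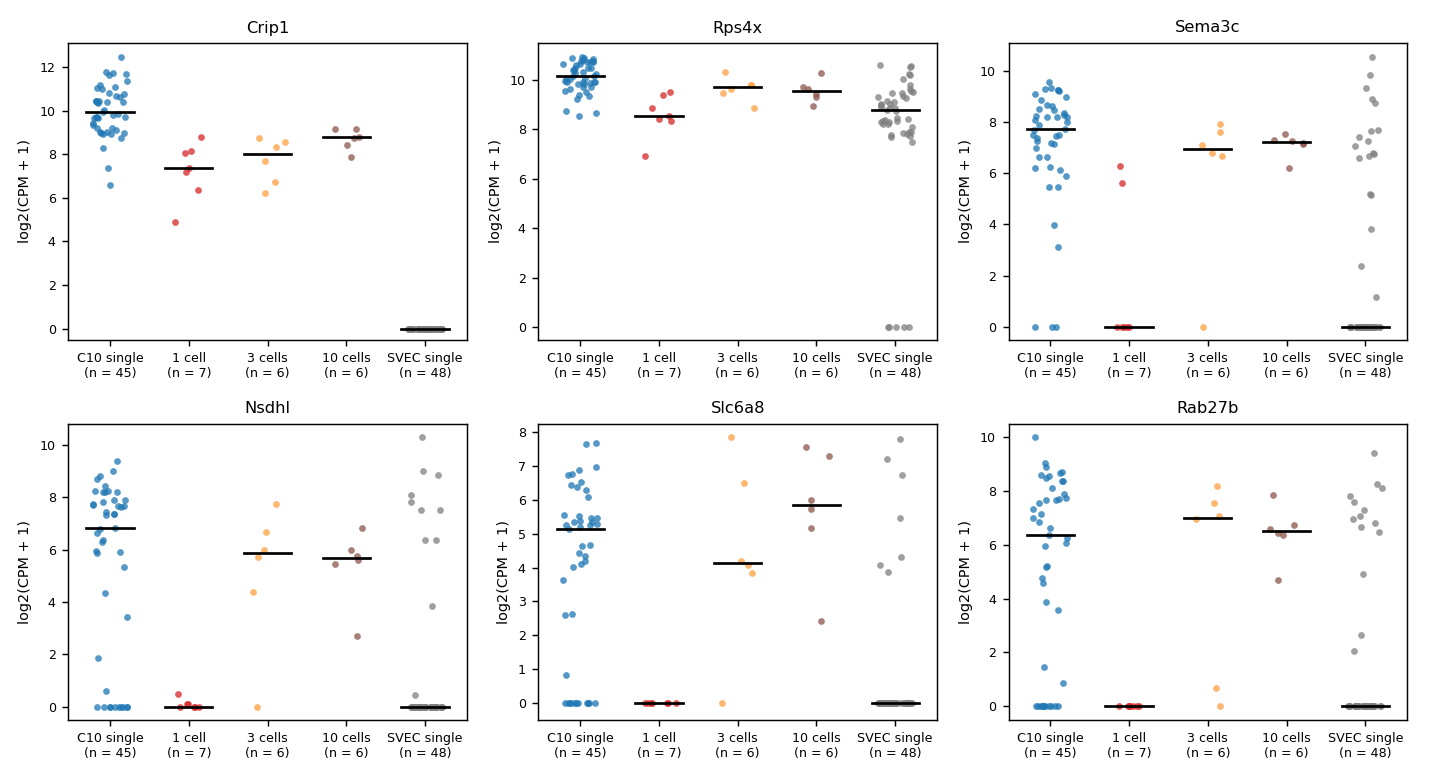
Levels of Crip1, Rps4x, Sema3c, Nsdhl, Slc6a8 and Rab27b as log2(CPM + 1), 1 point per library and a bar at the group median, for C10 single cells, 1-cell libraries, 3-cell and 10-cell pools and SVEC single cells. Rab27b and Slc6a8 lie at 0 in all 7 1-cell libraries, and 41 C10 single cells lie above the highest 1-cell value of Crip1.

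Detection at matched depth was also compared gene by gene. Fisher's exact test on the number of libraries with a count found 2 of 9989 genes (0.02%) at an adjusted p under 0.05, and 703 (7.04%) at an unadjusted p under 0.05, of which 549 were seen more often in C10 single cells and 154 more often in 1-cell libraries. The 2 genes were Selenbp1, seen in 0 of 45 C10 single cells and 7 of 7 1-cell libraries (adjusted p = 7.47e-05), and the noncoding gene 1700123J17Rik, seen in 2 and 6 (adjusted p = 0.0463). Only Selenbp1 passed when library 2, 5, 9 or 14 was left out, and no gene passed when 3 counts were required. Thinned to 1000000 counts, which kept 37 C10 single cells, 30 genes passed, 26 of them seen more often in 1-cell libraries. Next in order, and not past the threshold, were 9130409I23Rik (3 and 6 libraries), TrnP (4 and 6) and Parp14, an interferon-linked ADP-ribosyltransferase (5 and 6). In the other direction stood Son, a scaffold of nuclear speckles that overlaps Donson, seen in 42 of 45 C10 single cells and 1 of 7 1-cell libraries (adjusted p = 0.0681), Gnb1, a G protein subunit (45 and 3), Galk1, galactokinase, which overlaps Itgb4 (40 and 1), and Carhsp1 and Smim11 (35 and 0 each), with adjusted p of 0.131.

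For the same C10 single cells against the pools, 953 of 13643 genes (6.99%) were called with 3 cells, 63 higher (0.462%) and 890 lower (6.52%), and 1475 (10.8%) with 10 cells, 13 higher (0.0953%) and 1462 lower (10.7%). These fits share the C10 single cells with the main comparison. Fth1 (adjusted p of 1.54e-25 and 1.56e-23) and Selenbp1 (1.08e-10 and 4.38e-12) were lower against both pools as well, and without the pools numbered 1 (1.69e-27 and 9.52e-26 for Fth1, 2.43e-11 and 1.20e-12 for Selenbp1). Selenbp1 entered these fits only through the input series, so its p-values are descriptions.

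By annotated type, 735 of 7630 protein-coding genes were lower and 99 higher, with a median of -0.41. Of 626 long noncoding RNA genes, 170 were lower and 3 higher, with a median of -0.99. Over all genes 11.2% were lower and 1.21% higher. On thinned counts, where 100 long noncoding genes were tested, 10 were lower and 1 higher, beside 1.9% and 3.61% over all genes. The median difference also moved with the GC content of the transcript among genes at 100 CPM or more in the 10-cell pools, from -0.40 in the fifth with the lowest GC to -0.64 in the fifth with the highest, and from 0.16 to -0.06 with library totals; its part in the differences above was not tested.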

How the data were processed

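The authors deposited 1 table of counts per library, whole numbers of reads per gene symbol (40202 symbols) with 5 closing counters such as unaligned reads. FastQC, STAR and HTSeq are named in the submitters' processing notes; versions, genome build, annotation and strand setting are not given in the sources used here. There are no molecular identifiers. Gene counts per library ran from 147254 to 15385625. The ± values are SDs over libraries or SEs of the edgeR fits, and both include the spread between these libraries. The floor used for genes without counts in the 1-cell libraries covers counting error only.

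From these counts, edgeR 4.0.16 (R 4.3.3; quasi-likelihood test, TMM, Benjamini-Hochberg adjustment over all genes tested) was fitted on genes counted in 50% or more of 1 group's libraries, as tested on simulated data. limma 3.58.1, DESeq2 1.42.0, other scalings, thinning to 100000 or 1000000 counts, other filters and leaving out libraries were alternatives. Single values were compared by exact permutation (133784560 regroupings enumerated, scipy 1.17.1 and Python 3.11.15). Gene types came from RefSeq GRCm38.p6, where 38730 symbols matched.

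Named genes were the 10 largest differences each way past 0.05 in both edgeR and limma with counts in 90% of the libraries of the higher group, 3 more each way with unnamed symbols, 5 each way from the detection test and up to 4 members per list by p. Members, lists and tests were chosen with earlier results of these data known. Some genes that the rule names are not reported here.

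The closest pair of libraries within either group differed by far more than sampling noise (chi-square per degree of freedom of at least 122).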

Additional observations from a re-analysis of the deposited data

Results flagged for a closer look

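In 82 sets of values over the 7 1-cell libraries (shares per library, and levels of named genes), the highest or lowest library lay far from the others in 20, that is, its gap to the nearest exceeded 0.568 of the whole range. For normally distributed values chance gives such a gap in about 1 of 20 sets, and the genes of a library are not independent of each other. That rate does not hold for genes at 0 in most of these libraries. For Carhsp1, Srebf2, Trim28 and Fyttd1 every other library was at 0, so any count in 1 library gave a gap of the whole range.

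Library 14 was the highest in mitochondrial mRNA (18.8%) and mitochondrial ribosomal RNA (6.78%). On the log2(CPM + 1) scale it was the highest for ATP6 (14.34), COX1 (14.97), ND1 (14.52), CYTB (15.08) and Nsdhl (0.47), and the lowest for Atp5g2, a nuclear gene of ATP synthase (5.70). Library 10 was the highest in the share of noncoding RNA (3.87%) and, on the same scale, for Rsph9 (4.98), Carhsp1 (4.13), Srebf2 (2.00) and the gap junction gene Gja1 (4.29). Library 5 was the lowest for Hmox1 (0), Phlda3 (0), Capzb (0.17), Psma3 (1.01) and Psmc2 (0). Library 9 was the highest for Fyttd1 (1.14), and library 13 for Trim28 (0.67). Levels under 1 on this scale are those of a few counts.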

How the results depend on the processing

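TMM gave 1044 calls; the count was 686 with library totals, 1763 with poscounts factors, 1181 with DESeq2, 800 in limma, 4350 with no filter, 487 with counts in 90% of a group, 668 with the detection rate as a covariate, 238 of 4321 after thinning and 344 in limma on thinned counts; leaving out 1 library at a time gave 803 to 1086. Without libraries 10 and 14 together it was 705. The replicate block on the 6 shared numbers gave 3 calls (edgeR, 0 higher and 3 lower), and the same libraries with no block also gave 3. Libraries of the same number showed no likeness over the whole profile. Their deviations from group means correlated between -0.0208 and 0.00242, and no library correlated best with its own number. Single cells differ from each other, so this cannot decide whether a number marks a shared plate or day. On the libraries of the 6 shared numbers the missed reference genes differed by -19.8 points (sign-flip test of the paired differences, adjusted p = 0.0625). Pairing leaves a mean difference unchanged, so that value belongs to the smaller set of libraries. limma called 630 genes against the 3-cell pools (edgeR 953) and 2418 against the 10-cell pools (edgeR 1475); without the pools numbered 1, edgeR called 780 and 1291.

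The difference in genes detected was -1695 at full depth, 528 at 3 or more counts, 1104 with library 1 added and 363 to 1123 with 1 library left out. Missed reference genes differed by -5.49 points at full depth (adjusted p = 0.102) and by -14.5 to -7.72 with 1 left out. Genes detected unequally numbered 30 at 1000000 counts, 0 at 3 or more counts, 1 with library 1 added and 1 to 3 with 1 left out.

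As differences of medians, mitochondrial mRNA gave -0.772 points, ribosomal proteins 1.72, reads outside gene models -0.525 and noncoding RNA 0.00642. With library 1 added, mitochondrial ribosomal RNA gave -5.46, the 100 most abundant genes -11.5, reads outside gene models -0.446 and unaligned reads -12.8. Leaving out 1 library gave -2.94 to -0.544 for mitochondrial mRNA, 1.61 to 2.03 for ribosomal proteins, -0.223 to 0.258 for noncoding RNA, -4.48 to -0.848 for the top 100 genes, -1.36 to -0.360 for reads outside gene models and -7.22 to -2.37 for unaligned reads.

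Where a count or call changed, the cause was not tested, apart from the block, where the same libraries without it gave the same count. The fits without libraries 10 and 14 together, limma on thinned counts, the fits without the pools numbered 1 and the fit without the block on the paired libraries were chosen after seeing the data. The C10 depth limits low genes: a count was worth up to 6.79 CPM in the shallowest C10 single cell.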
